A study of Sus scrofa with 189 samples.

Results

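The cytosolic ribosomal protein genes were taken as every gene whose symbol in the deposited table begins with RPL or RPS and a digit, or is RPSA, RPLP0, RPLP1 or RPLP2, without the RPS6 kinases. The rule found 56 of the 12651 genes of the series, with 98 of its 18114 transcripts. RPS21 had 2 listings, so that the 56 genes carried 55 symbols. The samples were longissimus dorsi, the long muscle of the back, of 189 pigs from Duroc boars crossed with Luchuan sows, in a series whose title names expression QTL and allele-specific expression as its subject. Per the labels' protocols the pigs were fed alike on 1 farm and slaughtered at 210 ± 6 days, muscle was taken shortly after death, and polyadenylated RNA was sequenced as 150-base pairs. The protocols gave 8 boars and 265 animals, and gave 112 sows in one place and 158 in another. Strain and treatment were the same for all animals. Each library is 1 animal.

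The labels set 21 libraries apart with the word re-analyzed, which they do not explain. Of these, 10 animals had a high intramuscular fat (IMF) content, between 4.83 and 6.84 in a unit the labels do not give, and 11 had a low one, between 0.77 and 2.33. Of the 168 unmarked libraries, 143 had an IMF content between 1.19 and 5.61 and 25 had none. The digits of the titles can be read as a year, the later of 2 for 120 animals and the earlier for 69, and the first 9 digits are a code that 146 animals shared in 48 sets of 2 to 7. The labels do not say what these digits stand for.

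Ribosomal proteins and ribosomal RNA make up the small and the large subunit of the cytosolic ribosome. The mRNAs of most of these proteins begin with a 5′ terminal oligopyrimidine (TOP) tract, through which mTOR signalling and LARP1 set their translation together. In striated muscle of the mouse, RPL3L takes the place of its close relative RPL3 in a share of ribosomes. Among the genes found, 24 encode other large subunit proteins and 23 small subunit proteins, 2 encode stalk proteins (RPLP0 and RPLP2), and 4 are paralogs (RPL3L, RPL26L1, RPL36AL and RPS27L). RPL17-C18orf32 is a readthrough of neighbouring genes. RPL7L1, a nucleolar assembly protein, and RPS19BP1, a binding partner of RPS19 and of the deacetylase SIRT1, are not subunits although their names meet the rule.

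All values are FPKM, a level per transcript length and per sequenced fragment, summed over the listed transcripts of a gene. All 56 genes passed the filter of a mean of at least 0.5 FPKM, which 10717 genes of the series passed, and none was listed at 0 in any animal. The libraries' summed FPKM lay between 364109 and 465105, the number of genes at 1 FPKM or more between 7803 and 10614, and the share of the 10 most abundant genes between 20.0% and 44.8%. Skeletal fibre markers summed to between 30968 and 106296 FPKM, while the lymphocyte markers CD2, CD3D, CD3E, CD79B, MS4A1 and PTPRC were not analysed here. The depth of the libraries is unknown, and the low values showed no steps of whole reads. Errors are therefore the spread between animals. In bulk muscle, fewer cells of a type and less RNA per cell cannot be told apart. Chromosome positions are those of the deposited table, on Sscrofa11.1.

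The ribosomal protein genes were among the abundant transcripts of the muscle and differed widely in level. They summed to 4.54 ± 0.65% of all listed FPKM (SD, n = 189), with 3.33% in the lowest library and 7.45% in the highest. Their median level was 301.9 FPKM, against 4.16 FPKM over all genes tested. The mean exceeded 500 FPKM in 12 genes and 100 FPKM in 48, and lay under 50 FPKM in 7.

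The stalk protein RPLP0, which helps to recruit elongation factors, was the most abundant at 1136 ± 260 FPKM (SD, n = 189), with 666.1 FPKM in the lowest and 1963 FPKM in the highest animal. The next were the small subunit protein RPS16 at 1110 ± 224 FPKM and the large subunit protein RPL7A at 981.1 ± 234.9 FPKM. RPS15 followed at 815.5 ± 194.5 FPKM and RPS28 at 798.5 ± 247.4 FPKM. Neighbours in this order differed by less than the spread between animals. RPLP2, the other listed stalk protein, averaged 196.4 ± 36.9 FPKM.

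The lowest means belonged to genes that are not core subunits or are paralogs, and to a single-exon listing of RPL35A. RPL7L1 averaged 8.35 ± 1.58 FPKM and RPL35A 8.44 ± 3.77 FPKM. RPS27L, a p53-induced paralog of RPS27 in human cells, averaged 12.8 ± 4.5 FPKM, RPS19BP1 13.2 ± 3.9 FPKM and RPL36AL 15.5 ± 7.5 FPKM (SD, n = 189 for each). The means of neighbours in this order lay within 1 SD of the more variable of the pair. The level also went with the annotated length. The transcript of highest mean was between 308 bases (RPS29) and 5881 bases (RPL3) long, and over the 56 genes the mean FPKM fell with that length (Spearman's rho = -0.54, a description across genes, which are not independent replicates).

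**Figure D1:**
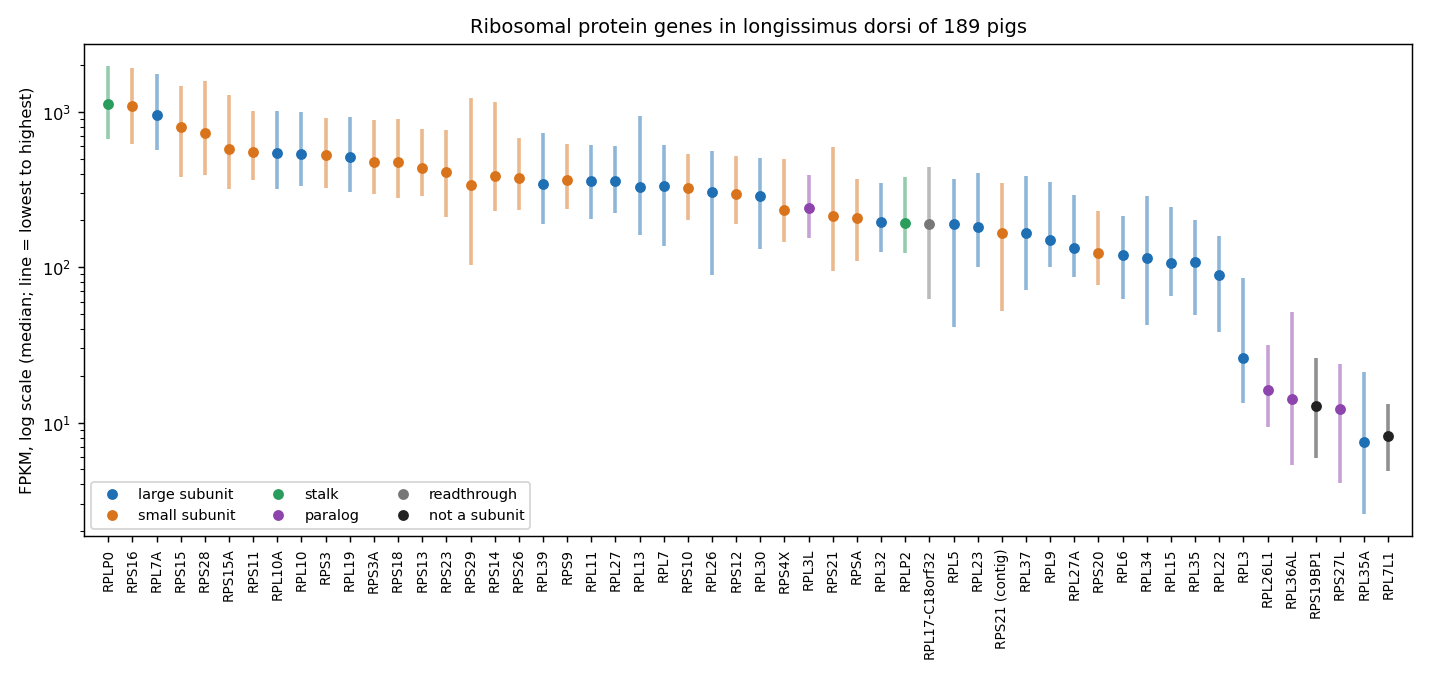
Level of 54 of the 56 ribosomal protein genes in 189 animals, ordered by mean. Points are medians and lines run from the lowest to the highest animal, in FPKM on a log scale, coloured by role; RPLP0 stands highest with a mean of 1136 FPKM, and RPL3 and 6 other genes lie under 50 FPKM.

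Most of these genes varied between animals about as much as genes in general. The SD of log2(FPKM + 1) over animals had a median of 0.34 for the ribosomal protein genes and of 0.37 for all genes tested, and 36 of the 56 ribosomal protein genes lay under that of all genes. Among the 160 genes of the series within the middle range of ribosomal protein levels it was 0.40. The smallest SDs were those of RPS3 (0.24), which lines the mRNA entry channel, RPL7L1 (0.24), RPS20 (0.25), RPL27 (0.26) and RPLP2 (0.26).

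RPS29, a small zinc-binding protein of the small subunit on chromosome 1 (179454934 to 179456807), varied most, with an SD of 0.86. It was listed at 103.7 FPKM in the lowest and 1229 FPKM in the highest animal, with a median of 337.6 FPKM, and the middle part of the animals, between the lower and the upper quartile, lay between 218.9 and 515.9 FPKM. The next were RPL36AL (0.62), RPL37 (0.56), RPL35A (0.55) and RPS21 on chromosome 17 (0.54). RPL36AL, a relative of RPL36A, lies 19.8 kb from RPS29 (chromosome 1, 179476638 to 179479147) and ran from 5.32 to 51.3 FPKM.

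RPL3L and RPL3 were measured side by side in every animal. RPL3L (chromosome 3, 40005075 to 40016701) had a lowest value of 153.1, a median of 240.0 and a highest value of 392.9 FPKM. RPL3 (chromosome 5, 8922653 to 8934282) had a lowest value of 13.4, a median of 26.2 and a highest value of 84.8 FPKM. RPL3L was the higher of the pair in 189 of 189 animals, and its FPKM was 9.81 ± 3.28 times that of RPL3 (SD, n = 189, range 1.96 to 22.0). This ratio rests on the length by which FPKM divide. RPL3 has 1 listed transcript of 5881 bases, and the main transcript of RPL3L has 1447 bases. Multiplied back by length in kilobases, RPL3L stood at 351.7 ± 65.4 and RPL3 at 159.2 ± 52.6 (SD, n = 189). On that scale RPL3L was 2.40 ± 0.80 times as high, and it exceeded RPL3 in 186 animals and not in 3. A gene with no symbol lies within RPL3 on the opposite strand, at 0.658 FPKM, and whether the libraries kept strand is not stated.

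An inverse relation between the pair was not detected across animals. The correlation of log2(FPKM + 1) was r = -0.13 (permutation p = 0.0672, n = 189) with rho = -0.04 (permutation p = 0.575), and r was -0.04 without the 2 animals farthest from the median of RPL3. In the 21 re-analyzed libraries r was -0.33 (permutation p = 0.143) and rho was -0.21 (permutation p = 0.349), with r = -0.03 without 2 animals. In the 168 unmarked libraries r was -0.04 (permutation p = 0.573) and rho was 0.05 (permutation p = 0.518), with r = 0.08 without 2 animals. Among the 120 animals of the later title year r was 0.01 (permutation p = 0.889) and rho was 0.03 (permutation p = 0.743). Among the 69 of the earlier year r was -0.32 (permutation p = 0.00795) and rho was -0.10 (permutation p = 0.398), with r = -0.06 without 2 animals, so that the relation there rested on those 2. Over a family of 4 relations (those in all, re-analyzed and unmarked libraries and the ratio against IMF below) the smallest adjusted p was 0.208. The values within title years were not adjusted.

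RPL26L1, RPL7L1 and RPL36AL were far lower than their relatives. RPL26L1 averaged 16.9 ± 3.9 FPKM and RPL26, which lines the exit tunnel of the large subunit, 303.1 ± 94.9 FPKM, with a median ratio of 0.0557 (range 0.0314 to 0.153). RPL7L1 was at 0.0245 times RPL7 in the median animal. RPL36AL was at 0.101 times RPL36A, which averaged 173.5 ± 59.4 FPKM and is named by the reference table only. RPL3L was thus the 1 gene listed above its relative among these 4 pairs. RPS27L was not compared with RPS27.

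**Figure D2:**
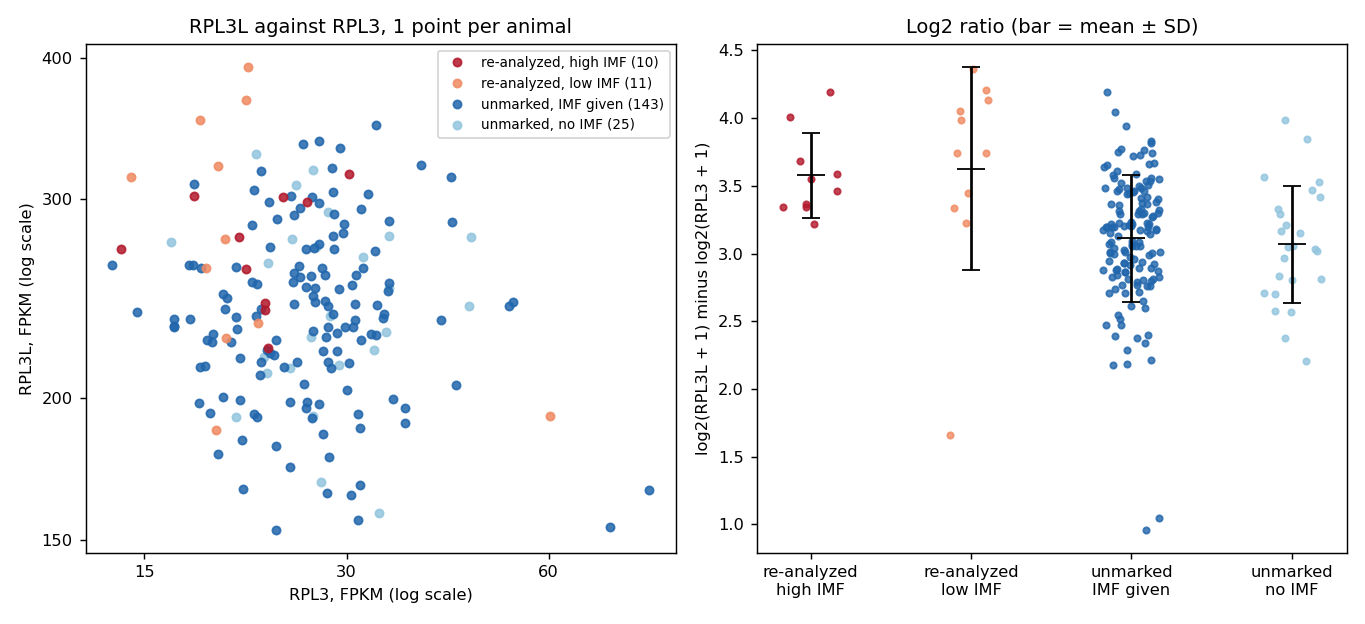
RPL3L and RPL3 in 189 animals. Left, FPKM of both genes on log axes with 1 point per animal; right, the log2 ratio by group with mean ± SD. RPL3L exceeded RPL3 in 189 of 189 animals, and the ratio averaged 3.60 in the 21 re-analyzed and 3.11 in the 143 unmarked libraries with IMF.

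RPL35A and the second RPS21 were listed away from the usual genes. The gene called RPL35A here has 1 exon of 443 bases on chromosome 9 (19764883 to 19765325) and overlaps the RefSeq gene LOC100519675. RefSeq places RPL35A on chromosome 13 (134588288 to 134591873), where the table lists a gene with no symbol at 71.1 ± 16.9 FPKM (SD, n = 189). The second RPS21 has 1 exon of 345 bases on an unplaced contig and averaged 175.3 ± 56.2 FPKM, and the 6-exon RPS21 on chromosome 17 (61763564 to 61764815) averaged 241.5 ± 98.0 FPKM. Reads could be assigned to either copy of such a pair, so their single values are uncertain. In all, 53 of the 56 genes overlapped a RefSeq gene of the same symbol.

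The ribosomal protein genes varied together more than genes in general. The median pairwise Pearson r of log2(FPKM + 1) over 189 animals was 0.41 among the 56 genes, against 0.27 among 67 mitochondrial ribosomal protein genes and 0.08 over all genes tested. It was 0.75 within the 21 re-analyzed and 0.39 within the 168 unmarked libraries, and 0.41 without library 39, which has the most genes at 1 FPKM or more. These values are descriptions, since all genes of a library share its depth and composition. Of the 1540 pairs, 122 had an r above 0.8 and 190 had a negative one.

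The gene closest to the others was RPL27, a large subunit protein, with a median r of 0.58. RPS20 (0.57), RPS26 (0.56) and RPS12 (0.55) of the small subunit were also among the highest. Farthest from the others was RPL3L with 0.15, followed by RPL36AL (0.16), RPS21 on chromosome 17 (0.18), RPLP0 (0.22) and RPS19BP1 (0.23). The highest single pairs were RPL30 with RPL37 (0.95), RPL34 with RPL22 (0.94) and RPL26 with RPL22 (0.93), all of the large subunit. The lowest were RPLP0 with RPS29 (-0.53) and RPS27L with RPLP0 (-0.50).

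**Figure D3:**
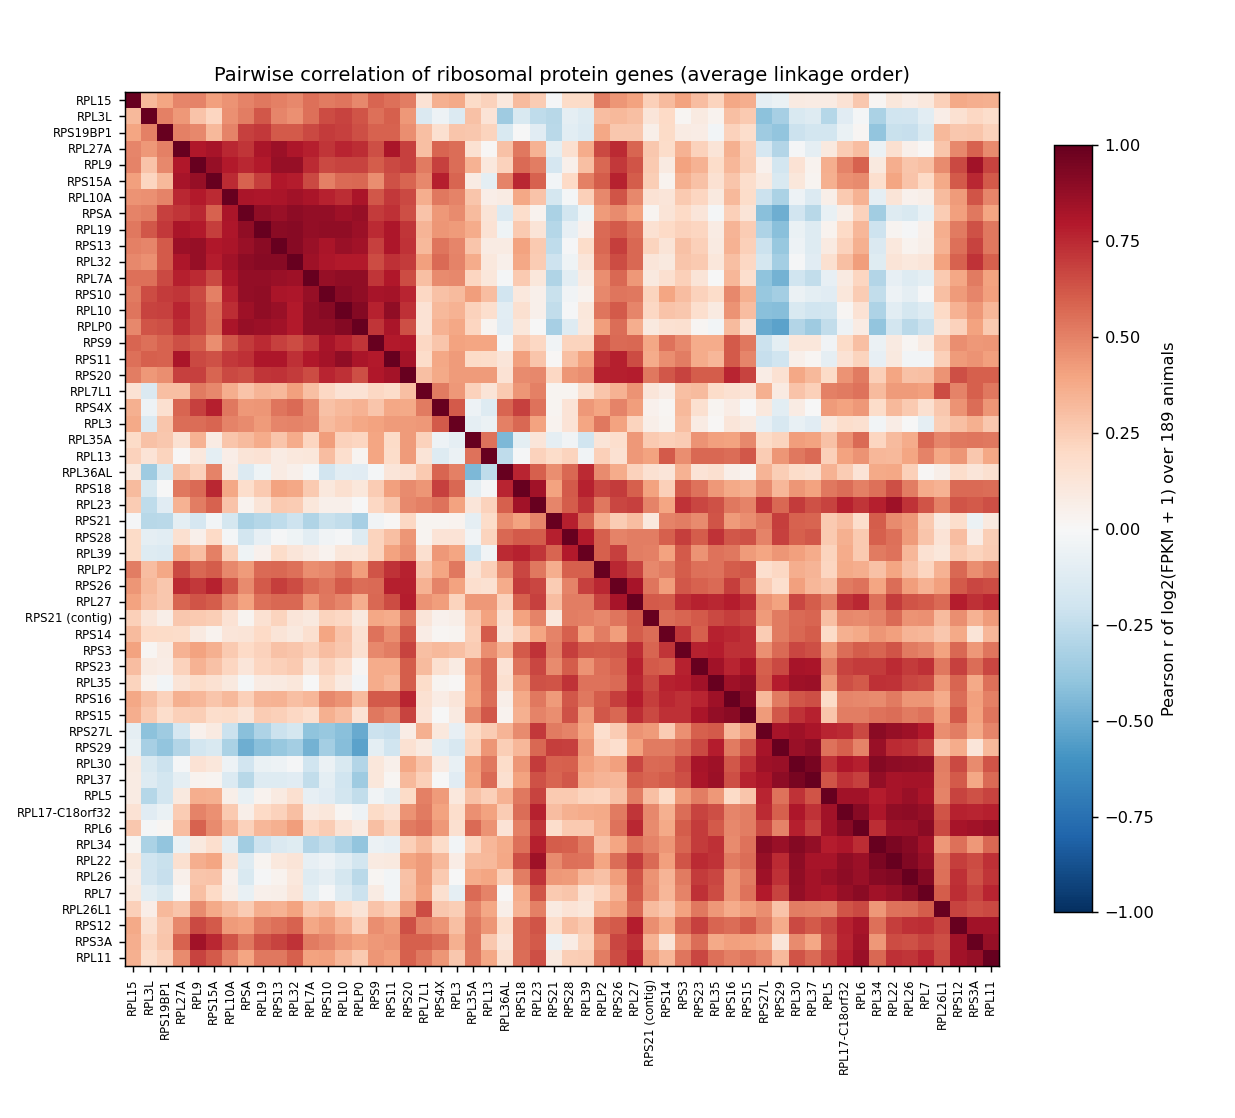
Pairwise Pearson r of log2(FPKM + 1) over 189 animals for 54 of the 56 ribosomal protein genes, in the order of an average linkage tree. Red is positive and blue negative; RPLP0, RPSA, RPL7A and RPL10 lie in one block and RPS29, RPL30, RPL37 and RPL34 in another, with RPLP0 against RPS29 at -0.53.

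The genes also differed in how they went with the number of genes at 1 FPKM or more in a library. Of the 56 relations, 22 were positive and 17 negative with both coefficients past an adjusted p of 0.05 (Benjamini-Hochberg over 56). The share of all tested genes with such a relation is not given here, so these counts have no background beside them. RPL5, which carries 5S ribosomal RNA and binds MDM2, had r = 0.69 and rho = 0.57, with r = 0.67 without 2 animals. RPS27L had r = 0.65 and rho = 0.65, with r = 0.66 without 2 animals. RPL3L had r = -0.64 and rho = -0.64, with r = -0.63 without 2 animals. RPLP0 had r = -0.62 and rho = -0.64, with r = -0.63 without 2 animals. For these 4 the permutation p was 1e-05, the smallest that 100000 resamples can give (adjusted p = 2.07e-05, n = 189). For RPL5 r was 0.72 within the later and 0.58 within the earlier title year, and for RPL3L it was -0.70 and -0.63 in the same order. Within the 21 re-analyzed libraries r was nearer to zero than within the 168 unmarked ones. It was 0.45 against 0.73 for RPL5 and 0.26 against 0.69 for RPS27L. For RPL3L it was -0.58 against -0.66 and for RPLP0 -0.34 against -0.64. After the linear relation with the number of such genes was removed, the median pairwise r of the ribosomal protein genes was 0.47.

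The 5 genes outside the list with the most similar pattern were themselves ribosomal. By median r with the 56 genes over 189 animals, the first was a gene with no symbol that overlaps the RefSeq gene RPL24 (0.59), at 656.0 ± 134.6 FPKM. RPS25 (0.55), a gene overlapping RefSeq RPL35A (0.54) and RPS27A (0.54) were also among the first. BTF3 (0.50, rank 8) and EEF1B2 (0.48, rank 10) overlap no RefSeq ribosomal protein gene. The median over 10661 other genes was 0.05. Genes known as ribosomal proteins from the reference table alone numbered 13, among them RPL4, RPLP1, RPS2 and RPS24. They are outside the rule and are counted below as a list of their own.

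Many ribosomal protein genes had a higher FPKM in re-analyzed than in unmarked libraries, in a fit with IMF content as a linear covariate. The re-analyzed animals lay in the low and the high part of the IMF range, so animals were not matched on IMF. Without adjustment for IMF, the summed share of these genes lay between 3.69% and 6.32% of FPKM with a median of 4.94% in 21 re-analyzed libraries. In 143 unmarked ones with IMF it lay between 3.33% and 7.45% with a median of 4.44%. Of the single genes, 23 of 56 were higher and 3 lower (limma on log2(FPKM + 1), Benjamini-Hochberg over 10717 genes, adjusted p under 0.05). Over all genes tested, 41.1% were called, 18.3% as higher and 22.7% as lower. Of the ribosomal protein genes 46.4% were called, so their share of calls was near the background, while 41.1% were higher and 5.36% lower. With each library shifted to the same median, 2551 genes of the series were higher and 2145 lower, against 1964 and 2436 as deposited. Of the ribosomal protein genes 26 were then higher and 3 lower. With title year and month as a factor, 24 ribosomal protein genes were higher and 2 lower, and 1853 and 2364 over all genes. The median difference was 0.13 (log2) for the ribosomal protein genes and -0.01 for all genes. Quantile normalization gave 20 higher and 5 lower, and 33 of the 56 differences were then positive, against 46 as deposited. Over all genes it gave 2308 higher and 2267 lower.

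Large subunit genes other than stalk and paralogs gave 11 higher and 2 lower of 24. RPL7 stood between 348.5 and 614.8 FPKM with a median of 475.9 in re-analyzed libraries, against 137.1 to 556.6 with a median of 323.7 in unmarked ones. The difference was 0.59 (SE 0.09, adjusted p = 1.44e-07, limma). RPL37 stood between 157.5 and 351.9 FPKM with a median of 266.0 in re-analyzed libraries, against 71.8 to 384.5 with a median of 157.5 in unmarked ones (0.70, SE 0.12, adjusted p = 8.48e-07). RPL11, which like RPL5 binds MDM2, averaged 452.1 ± 87.4 FPKM in re-analyzed and 355.5 ± 77.7 FPKM in unmarked libraries (0.36, SE 0.07, adjusted p = 2.78e-05). In each of these genes the ranges overlapped and the re-analyzed median was the higher.

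RPL35A on chromosome 9 had the largest difference, 0.83 (SE 0.11, adjusted p = 9.46e-10, limma). It stood between 7.79 and 21.2 FPKM with a median of 14.3 in re-analyzed libraries, against 3.12 to 19.3 with a median of 7.12 in unmarked ones. The gene without a symbol at the RefSeq position of RPL35A differed by 0.32 (SE 0.07, adjusted p = 0.00032). The 2 listings had r = 0.41 over 189 animals.

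Small subunit genes gave 8 higher and 0 lower of 23. RPS15, which reaches into the decoding site, averaged 1055 ± 219 FPKM in re-analyzed and 786.0 ± 161.7 FPKM in unmarked libraries (0.42, SE 0.07, adjusted p = 1.16e-06, limma). RPS23, a protein of the decoding centre, averaged 532.2 ± 93.7 FPKM in re-analyzed and 404.2 ± 89.3 FPKM in unmarked libraries (0.41, SE 0.07, adjusted p = 3.47e-06). RPS12 averaged 368.1 ± 55.4 FPKM in re-analyzed and 293.7 ± 58.7 FPKM in unmarked libraries (0.34, SE 0.06, adjusted p = 9.78e-06). The ranges of these 3 genes overlapped between the groups. RPS29, the gene of widest spread, lay between 372.3 and 646.0 FPKM in re-analyzed libraries, inside the 110.7 to 1229 FPKM of the unmarked ones (0.48, SE 0.19, adjusted p = 0.0381), and it was not called without library 14, 33, 34, 104, 136 or 151, each left out alone (adjusted p = 0.0508 to 0.0616). It was also not called with quantile normalization (adjusted p = 0.0945) or with the share of the 10 most abundant genes as a covariate (adjusted p = 0.375). The stalk genes were not called: RPLP0 differed by -0.05 (95% interval -0.20 to 0.11) and RPLP2 by 0.05 (-0.08 to 0.17).

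The 3 lower genes were RPL36AL, RPL3 and RPL39. RPL36AL lay between 6.89 and 11.2 FPKM with a median of 9.32 in re-analyzed libraries, against 5.64 to 51.3 with a median of 15.0 in unmarked ones (-0.61, SE 0.14, adjusted p = 0.00019, limma). RPL3 had a median of 21.2 FPKM in re-analyzed and 26.7 FPKM in unmarked libraries (-0.26, SE 0.09, adjusted p = 0.0127). RPL39, a small protein of the exit tunnel, averaged 308.5 ± 55.7 FPKM in re-analyzed and 381.8 ± 111.3 FPKM in unmarked libraries (-0.26, SE 0.09, adjusted p = 0.0175), and with title year and month as a factor its adjusted p was 0.052. RPL36AL and its neighbour RPS29 thus differed in opposite directions, although they had r = 0.24 over all animals.

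RPL3L went the other way from RPL3. It lay between 187.4 and 392.9 FPKM with a median of 277.0 in re-analyzed libraries, against 153.1 to 349.1 with a median of 236.5 in unmarked ones. The difference was 0.22 (SE 0.06, adjusted p = 0.00314, limma), and with quantile normalization it was 0.12 and not called (adjusted p = 0.139). The log2 ratio of RPL3L to RPL3 averaged 3.60 ± 0.57 in 21 re-analyzed and 3.11 ± 0.47 in 143 unmarked libraries, a difference of 0.49 (permutation p = 7e-05, 100000 resamples, 2-sided). Among animals of the later title year the ratio averaged 3.32 ± 0.66 in 10 re-analyzed and 3.08 ± 0.42 in 92 unmarked libraries (difference 0.24, permutation p = 0.103). Among those of the earlier year it averaged 3.86 ± 0.32 in 11 re-analyzed and 3.18 ± 0.54 in 51 unmarked libraries (difference 0.68, permutation p = 0.00042). The difference between the years was not tested. The other called genes included RPL13, RPL30, RPL26, RPL6, RPL35, RPL27 and RPL22 of the large subunit, RPS3A and RPS16 of the small one, RPL17-C18orf32 and RPS19BP1, all higher, by 0.21 to 0.52. RPS19BP1 (0.21, SE 0.09, adjusted p = 0.0428) was not called under 17 of 33 alternatives, and RPL22 (0.24, SE 0.09, adjusted p = 0.0294) under 4. Its difference was 0.15 with quantile normalization (adjusted p = 0.138), 0.11 with the share of the 10 most abundant genes as a covariate (adjusted p = 0.279), and 0.22 without library 33 (adjusted p = 0.0558) or library 104 (adjusted p = 0.0502). RPL17-C18orf32 (0.28, SE 0.10, adjusted p = 0.0134) was not called with the transcript of highest mean alone (0.19, adjusted p = 0.318) or with that covariate (0.15, adjusted p = 0.138). Of the other paralogs, RPL26L1 was higher by 0.27 (SE 0.07, adjusted p = 0.000492, limma), and RPS27L differed by 0.25 (SE 0.11, adjusted p = 0.0563).

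**Figure D4:**
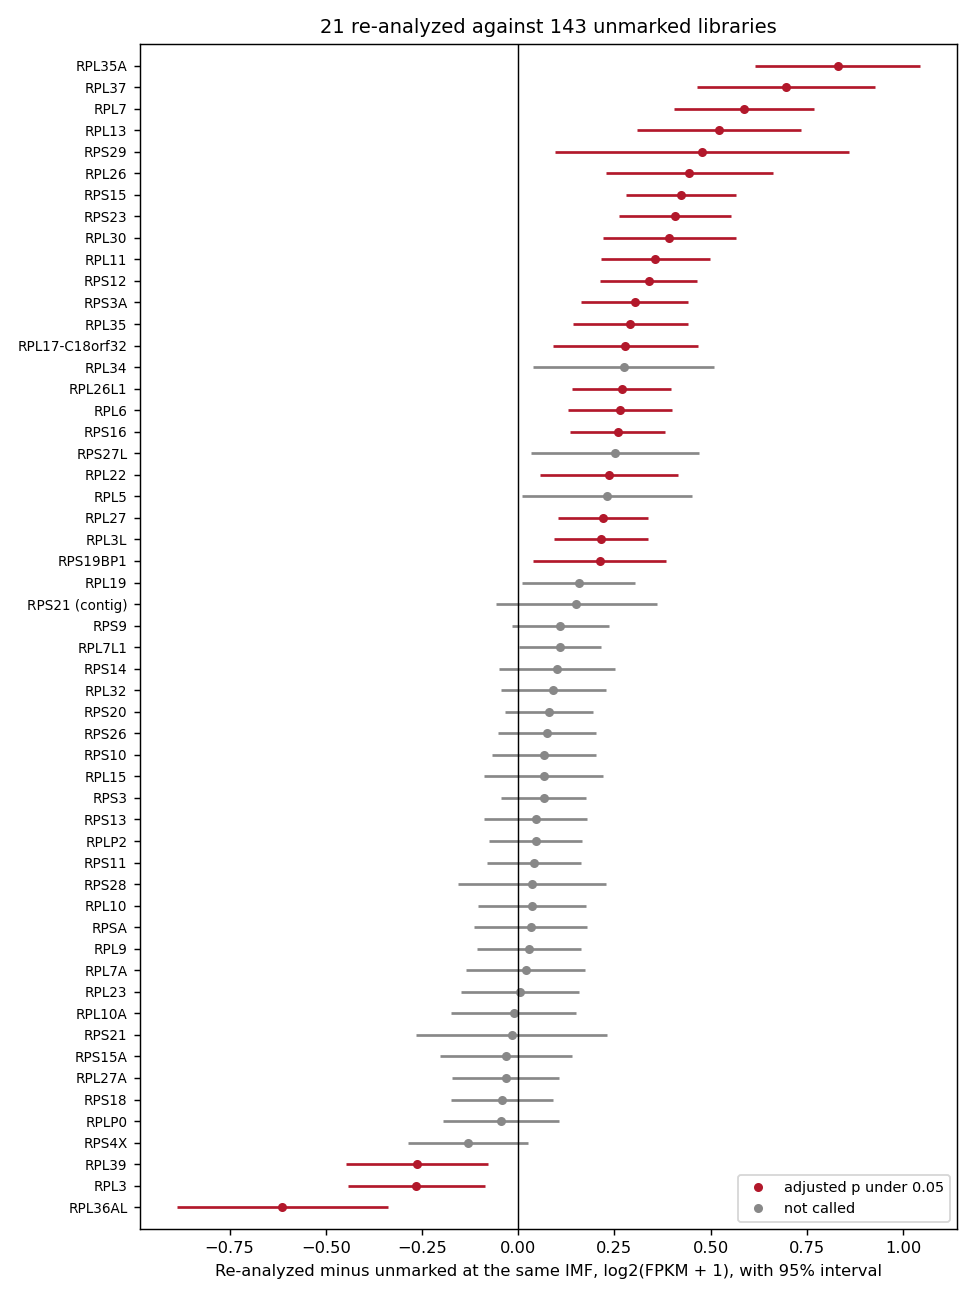
Difference between 21 re-analyzed and 143 unmarked libraries for 54 of the 56 ribosomal protein genes, in log2(FPKM + 1) with 95% intervals. IMF content was a linear covariate in the fit. Red marks the 24 of these past an adjusted p of 0.05, of which 21 lie right of 0 and RPL36AL, RPL3 and RPL39 lie left of it.

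Lists of related genes were set beside these counts, where 18.3% of all genes were higher and 22.7% lower. Of 15 measured genes of other TOP mRNAs and ribosome-bound proteins, 7 were higher and 1 lower in re-analyzed libraries (median 0.16). The translation initiation subunit EIF3E was higher by 0.66 (SE 0.15, adjusted p = 0.00034, limma), and the elongation factor EEF2 was lower (-0.48, SE 0.12, adjusted p = 0.00074). Of 46 ribosome assembly genes, 13 were higher and 4 lower (median 0.10), with the 60S export adaptor NMD3 higher by 0.74 (SE 0.18) and the RNA polymerase I subunits POLR1A (-0.28) and POLR1B (-0.29) lower. Of 16 regulators, 5 were higher and 4 lower (median -0.01), with the S6 kinase RPS6KB2 higher by 0.41 (SE 0.07) and LARP1, the TOP mRNA binding protein, lower (-0.44, SE 0.09). Of the 13 ribosomal protein genes named by the reference table, 6 were higher and 0 lower (median 0.19). Of 16 genes with no symbol that overlap a RefSeq ribosomal protein gene, 9 were higher and 2 lower (median 0.17). Of the 67 mitochondrial ribosomal protein genes 41 were higher and 3 lower (median 0.17), against a median of 0.13 for the 56 cytosolic ones.

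Markers of other cells moved with the same contrast. All 8 fibroblast markers were lower in re-analyzed libraries, where 22.7% of all genes were lower. Their summed level had a median of 760.9 FPKM (286.9 to 1523) in re-analyzed and 1117 FPKM (284.4 to 3479) in unmarked libraries with IMF. Likewise 6 of 7 adipocyte, 6 of 7 macrophage, 3 of 7 endothelial, 3 of 4 smooth muscle and 2 of 2 red blood cell markers were lower and 0 were higher. Among 9 skeletal fibre markers 2 were higher, MYH2 and DES, and 1 was lower, ACTA1. Adipocyte markers summed to a median of 94.9 FPKM (39.2 to 295.1) in re-analyzed and 150.3 FPKM (28.5 to 3217) in unmarked libraries. Macrophage markers summed to 23.3 (6.34 to 36.3) and 32.6 FPKM (10.9 to 96.1) in the same order. Endothelial markers summed to 66.7 (41.5 to 93.5) and 84.8 FPKM (43.1 to 151.0). Smooth muscle markers summed to a median of 101.3 FPKM (58.6 to 190.8) in re-analyzed and 130.3 FPKM (58.4 to 476.8) in unmarked libraries. Red blood cell markers summed to 36.9 (10.6 to 150.2) and 64.7 FPKM (0.838 to 497.3). The 1 lymphocyte marker measured lay at 1.57 FPKM or less in re-analyzed and at 3.16 FPKM or less in unmarked libraries and was not called. The number of genes at 1 FPKM or more had a median of 9018 in re-analyzed and 9175 in unmarked libraries, and the share of the 10 most abundant genes one of 31.0% and 33.1%. The part of these measures in the differences was not tested beyond covariates. With the share of the 10 most abundant genes in the fit, 22 ribosomal protein genes were higher and 3 lower. Over all genes 1137 were then higher and 3196 lower. With the number of detected genes in the fit, 26 ribosomal protein genes were higher and 3 lower, and 3026 and 2496 over all genes.

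IMF content was not accompanied by a detectable change in any ribosomal protein gene. Over 164 animals, with the mark in the fit, 0 of 56 slopes passed the adjusted threshold (limma, smallest adjusted p = 0.961) and 0 had an unadjusted p under 0.05, where 0.084% of all genes were called and 527 had such a p. Slopes lay between -0.04 for RPS4X and 0.05 for the contig copy of RPS21, in log2(FPKM + 1) per unit of IMF, and the widest 95% bounds over the 56 genes were -0.10 and 0.13. Adipocyte markers gave 4 of 7 genes higher with IMF in this fit and again in high against low IMF. None of the lists of TOP, assembly or regulator genes held a called gene in either. The log2 ratio of RPL3L to RPL3 had r = 0.12 (permutation p = 0.156) and rho = 0.12 (permutation p = 0.162) with IMF over 143 unmarked animals, and r = 0.08 without 2 animals.

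Within the re-analyzed libraries, high against low IMF gave the same picture. None of the 56 genes was called among 10 high and 11 low animals (limma, smallest adjusted p = 0.986), with 0.084% called over all genes. An unadjusted p under 0.05 was found for 1 of the 56 and for 4.43% of all genes (475 of 10717). The 1 ribosomal protein gene, RPS27L, lay between 13.4 and 20.9 FPKM with a median of 15.8 in high-IMF animals. In low-IMF ones it lay between 10.3 and 20.4 FPKM with a median of 12.8 (0.22, 95% interval 0.01 to 0.43). The median difference was 0.06 for the ribosomal protein genes and 0.07 for all genes, with 49 of 56 positive as deposited and 23 after quantile normalization. The IMF slope of re-analyzed and unmarked libraries did not differ detectably in any of the 56 genes (interaction term, limma, smallest adjusted p = 0.9999). Of the 56, 0 had an unadjusted p under 0.05, against 1.64% of all genes, and 0% of all genes were called.

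Of the 56 ribosomal protein genes, 1 (1.79%) was called as alike in animals that share a title code, near the 1.82% called over all genes. It was the contig copy of RPS21, whose values are uncertain. Its intraclass correlation, the part of the variance between codes, was 0.31 (moderated F test of limma over 146 animals of 48 codes, adjusted p = 0.0211). In unmarked libraries alone its adjusted p was 0.0481 by the same test. RPS21 on chromosome 17 had an intraclass correlation of 0.25 (adjusted p = 0.0624) and RPS14, another small subunit protein, 0.25 (adjusted p = 0.0731). The 2 RPS21 listings had r = 0.10 over 189 animals. In all, 10 of 56 had an unadjusted p under 0.05, near the share of 18.8% over all genes (2014 of 10717). The median intraclass correlation was 0.03 for the ribosomal protein genes and 0.05 for all genes. Of the 16 regulators, SP1 and EIF4EBP2 were called.

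Title year separated few of these genes. In animals of the later against those of the earlier year, with the mark in the fit, 0 of 56 genes were higher and 1 was lower, where 13.9% of all genes were called, 2.02% as higher and 11.9% as lower. RPL7 averaged 314.6 ± 90.5 FPKM in 120 animals of the later year and 369.3 ± 102.8 FPKM in 69 of the earlier (-0.19, SE 0.06, adjusted p = 0.0232, limma). It was not called with the share of the 10 most abundant genes as a covariate (smallest adjusted p of the 56 genes 0.146), with the number of detected genes as one, or after a median shift, which gave 3 other genes as higher, RPL3, RPS3 and RPSA. Without library 39, RPL3 was called as higher beside RPL7. In the same contrast 5 of 7 macrophage markers were higher, and their part in the result was not tested. TOP and ribosome-bound genes gave 2 higher and 2 lower of 15, assembly genes 1 and 4 of 46, and regulators 0 and 2 of 16. Over all genes the calls were 217 higher and 1276 lower as deposited, 673 higher and 795 lower after quantile normalization, and 875 higher and 675 lower after a median shift.

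Sums over transcripts hid a split in RPL10A, a protein of the mobile L1 stalk (chromosome 7, 31327620 to 31330699). Its 4-exon transcript of 533 bases was listed under 1 FPKM in 72 of 189 animals, with values from 0.162 to 0.373 FPKM. In the other 117 it stood between 26.3 and 443.1 FPKM, and no animal lay between these ranges. It was under 1 FPKM in 18 of 21 re-analyzed libraries and in 54 of 168 unmarked ones. On the log2 scale it differed by -4.07 (SE 0.80, adjusted p = 2.56e-05, limma over 14852 transcripts, of which 33.2% were called), and the 6-exon transcript of 968 bases by 0.42 (SE 0.12, adjusted p = 0.0052).

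The gene sum of RPL10A did not show this. It had a median of 520.5 FPKM in re-analyzed and 542.7 FPKM in unmarked libraries with IMF, a difference of -0.01 (95% interval -0.18 to 0.15, adjusted p = 0.926). Where the 4-exon transcript was under 1 FPKM, the 6-exon transcript had a median of 514.2 FPKM (337.1 to 841.3), and elsewhere one of 328.6 FPKM (167.9 to 648.0). The 2 transcripts had r = -0.61 and rho = -0.42 over 189 animals (permutation p = 1e-05 for each, the smallest that can be had; r = -0.61 without 2 animals), with r = -0.77 within re-analyzed and -0.57 within unmarked libraries. RPL15 likewise had r = -0.62 between its 2 main transcripts (rho = -0.43, permutation p = 1e-05 for each; r = -0.62 without 2 animals). Of the 6 genes whose second transcript held at least 10% of the mean, RPS9 was positive at r = 0.52 (rho = 0.51, adjusted p = 2e-05; r = 0.50 without 2 animals), and RPL13, RPL9 and RPL17-C18orf32 had weaker values between -0.22 and -0.13. The rho of RPL17-C18orf32 was 0.11. Within the re-analyzed libraries these 3 pairs were positive, at r = 0.60 for RPL13, 0.54 for RPL9 and 0.72 for RPL17-C18orf32, against -0.23, -0.17 and -0.26 within unmarked ones. RPS9 had r = 0.69 within re-analyzed and 0.51 within unmarked libraries, and RPL15 -0.64 and -0.63. Animals sharing a title code did not resemble each other detectably in the 4-exon transcript of RPL10A (intraclass correlation 0.06, adjusted p = 0.524). The labels do not say how fragments of overlapping transcripts were divided.

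**Figure D5:**
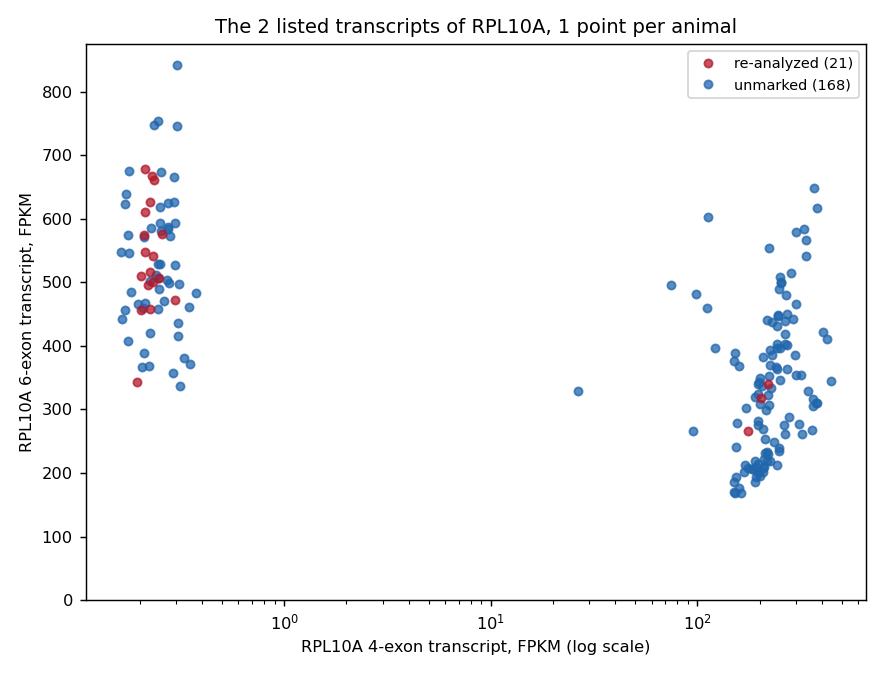
The 4-exon transcript of RPL10A (x, log scale) against its 6-exon transcript (y) in FPKM, with 1 point per animal, 21 re-analyzed and 168 unmarked. The left cloud holds 72 animals at 0.373 FPKM or less, 18 of them re-analyzed, and the right cloud 117 animals at 26.3 FPKM or more.

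Transcripts of 3 other genes came next in spread, with an SD of log2(FPKM + 1) of 2.29 (RPS3), 2.03 (RPS4X) and 1.74 (RPS3A), against 3.66 for the 4-exon transcript of RPL10A. The 8-exon transcript of RPS3 ran from 0.132 to 190.5 FPKM. It was under 1 FPKM in 8 of 21 re-analyzed and 30 of 168 unmarked libraries. In the fit of 21 re-analyzed against 143 unmarked libraries with IMF, its log2 level differed by -1.11 (SE 0.53, adjusted p = 0.0942, limma). The 6-exon transcript of RPS4X, the X-linked form of RPS4, ran from 0.306 to 111.9 FPKM. It was under 1 FPKM in 6 of 21 re-analyzed and 80 of 168 unmarked libraries. In the same fit its log2 level differed by 0.72 (SE 0.48, adjusted p = 0.242, limma). The 5-exon transcript of RPS3A ran from 0 to 38.8 FPKM. It was under 1 FPKM in 4 of 21 re-analyzed and 38 of 168 unmarked libraries. In the same fit its log2 level differed by 0.74 (SE 0.40, adjusted p = 0.143, limma). The counts under 1 FPKM were not tested. On average each of these 3 transcripts held under 6% of its gene, but in single animals the share reached 31.1% for RPS3 and 48.6% for RPS4X. The median share of the RPS4X transcript was 15.8% in the 10 high-IMF re-analyzed libraries, 0.556% in the 11 low-IMF ones and 0.446% in unmarked ones. It was under 1 FPKM in 54.2% of animals of the later and 30.4% of the earlier title year. These differences by IMF group and title year were not tested. The share of the RPS3A transcript reached 5.71%. Of 96 transcripts tested, 33 were higher and 5 lower in re-analyzed libraries, where 33.2% of all 14852 transcripts were called in either direction. The calls over all transcripts are not split by direction here, so the 33 and 5 have no background of their own. By title code 1 was called, that of the contig RPS21, where 0.768% of all transcripts were. In unmarked libraries alone 0 of the 96 were called (limma, adjusted p = 0.0669 for that of the contig RPS21).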

How the data were processed

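The authors deposited 1 table with a value per transcript and library. Its header names no unit, and the values were taken as FPKM from the table's layout and its sums. Per the submitters' processing notes, HISAT2 2.0.5, StringTie 1.3.3 and build Sscrofa11.1 were used, in roles not stated. Strand handling was not stated either. Deposited FPKM were summed per gene identifier, read on the log2(FPKM + 1) scale, which understates changes of low genes, and filtered at a mean of 0.5 FPKM. limma 3.58.1 in R 4.3.3 (lmFit, eBayes with a mean trend) was fitted over all genes, with Benjamini-Hochberg adjustment. Single values were tested by permutation (100000 resamples, 2-sided) in Python 3.11.15 with numpy 2.4.6 and pandas 2.3.3. The fits were tested on simulated data. FPKM carry no depth, so no counting error was computed. Groups came from sample titles and IMF labels. The alternatives of the closing section were another pseudocount, other filters, scalings, covariates, blocks and left-out libraries.

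The members and lists were chosen with earlier results of these data known. Genes were named by a fixed rule: paralog pairs, the 5 highest and lowest in level, spread and correlation, up to 8 called genes in each direction, and the 5 most similar other genes. Transcripts, genes overlapping RefSeq intervals, left-out re-analyzed libraries and the number of detected genes as a covariate were added after seeing the data. The design planned no test on transcripts. RefSeq positions are from the Sscrofa11.1 table. Sequences were not used here. Some genes are counted but not reported here by name.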

Additional observations from a re-analysis of the deposited data

Results flagged for a closer look

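Among the 10 high-IMF re-analyzed libraries, 57 values were checked for an animal far from the others, which chance flags in about 1 of 20. RPL15 stood at 185.7 FPKM in library 63, against 123.9 FPKM in the next animal. RPS29 stood at 595.6 FPKM in library 136, against 454.3 FPKM in the next animal. The gap to the next animal was 0.549 of the group's range for RPL15 and 0.673 for RPS29, both above Dixon's critical value for 10 animals. The cause was not tested.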

How the results depend on the processing

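The count of 26 ribosomal protein genes differing between re-analyzed and unmarked libraries lay between 25 and 29 under the other scalings, filters, blocks and covariates, and between 23 and 30 with each re-analyzed library left out in turn. The IMF slope and the high against low IMF comparison gave 0 genes under each alternative run, and high against low IMF gave 0 to 0 genes with each re-analyzed library left out, which was not run for the slope. Library 39 is unmarked and could not be left out of high against low IMF. The 1 gene called by title code became 2 with a minimum mean of 5 FPKM, with quantile normalization and with the number of detected genes as a covariate (added after seeing the data); the gene gained was RPS21 on chromosome 17. The 1 gene called by title year became 2 with quantile normalization, without library 39 and with unmarked libraries alone, 3 with a median shift and 0 with the share of the 10 most abundant genes as a covariate. The causes were not tested. For the genes called, 317 of 332 single values kept direction and call under the alternatives other than leaving out a re-analyzed library. Of these 332, 15 kept direction only and 0 turned. With each re-analyzed library left out in turn, 525 of 546 values kept direction and call, 21 kept direction only and 0 turned. The ratio of RPL3L to RPL3 was recomputed with another pseudocount, quantile normalization, the transcript of highest mean and without library 39 only. Under these 4 its difference lay between 0.45 and 0.50, and its correlation with IMF did not pass the threshold (r = 0.12 in each). Each library is 1 animal, so no pairing by animal was possible. Some title codes held both re-analyzed and unmarked animals, and re-analyzed against unmarked was not compared within codes alone. With title code as a random block the count of 26 stayed as it was. FPKM give no depth, so limits at low levels could not be computed.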
